A study of Mus musculus with 6 samples.

Results

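Oncofetal genes are active in the embryo, are shut down in most adult tissues and return in tumours. Members of this kind that are held down by the let-7 microRNAs, together with the Myc genes, were followed in the mouse cochlear sensory epithelia (CSE), in adult mice aged 8 weeks and in pups at postnatal day 3 (P3). The 10 genes were Hmga1, Hmga2, Lin28a, Lin28b, Igf2bp1, Igf2bp2, Igf2bp3, Myc, Mycn and Mycl, and every probe set that the array annotation gives to a single one of them was taken. This gave 8 genes, of 18193 genes that the annotation names alone, with 24 of the 45101 probe sets on the array. The annotation gives no probe set to Hmga1 or Igf2bp2, which were not analysed here. All groups were Swiss Webster mice with no treatment, with 3 adult arrays and 3 P3 arrays, each holding RNA pooled from the CSE of 20 mice. The pools came from separate dissections that removed the bony capsule and core of the cochlea and its lateral wall. The P3 tissue still held the epithelial ridges that recede later. The values are MAS5.0 signals, intensities on a linear scale, and their trimmed mean was 100 on every array, so the arrays had been scaled before deposit. In such a bulk sample, fewer cells of a type and less RNA per cell cannot be told apart.

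As background, let-7 microRNAs accumulate as tissues mature and pair through their seed, bases 2 to 8, with sites in the messenger RNAs that they repress. LIN28A and LIN28B are RNA-binding proteins that block the maturation of let-7 and are themselves let-7 targets, so each side holds the other down. HMGA2 is a small chromatin protein that binds AT-rich DNA, and the IGF2BP proteins bind messenger RNAs such as those of Igf2 and Myc and protect or localise them. MYC, MYCN and MYCL are transcription factors that pair with MAX on the E-box, the DNA word CACGTG, and drive growth. The let-7 family is shown here because its seed is what unites these targets. The array measured messenger RNA, and let-7 itself was not analysed here. In the RefSeq table for GRCm38.p6, 10 of 11 mature family members share the seed GAGGUAG, and let-7j has another (capitals mark the seed).
let-7a-5p: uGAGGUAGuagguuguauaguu
let-7d-5p: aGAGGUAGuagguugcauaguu
miR-98-5p: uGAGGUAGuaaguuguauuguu
let-7j: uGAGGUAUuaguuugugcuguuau

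One array stood apart from the rest. The ratio of 3' to 5' signal of the Gapdh control probe sets was 0.921 to 2.07 on the adult arrays, against 82.0 on P3 replicate 1 and 0.707 and 0.752 on the other P3 arrays. Each array's background level was taken as the 90th percentile over 83 probe sets of chemosensory receptor genes (smell, pheromone and bitter taste), and was 16.3, 9.05 and 8.71 on adult replicates 1, 2 and 3, against 34.5, 9.16 and 6.29 on P3 replicates 1, 2 and 3. Only the 29036 probe sets that exceeded background on 3 or more of the 6 arrays were tested. Adult and P3 arrays were compared with limma on log2 signals, with the p-value adjusted over all 29036, and a call needed both a difference of 2-fold or more and an adjusted p under 0.05 (7.26% of the tested probe sets, in either direction). Log2 fold changes are adult minus P3. Of the labelled tissue's markers, all 9 supporting cell genes and 7 of 9 hair cell genes could be measured, and Slc26a5, the motor protein of outer hair cells, was not above background on enough arrays to be tested.

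Of the 24 probe sets, 13 were tested, and these cover 6 genes. Of the 13, 3 were above background on no adult array, 1422851_at of Hmga2 and both tested ones of Igf2bp1, and so could be tested only through their P3 signals. Over the whole array 28.3% of the 180 probe sets of that kind were called lower in the adult, and these 3 are described apart. The other 10, of 5 genes, all had a lower mean log2 signal in the adult. Of the 10, 4 were called lower in the adult and 0 higher, 1 each in Igf2bp3, Myc, Mycn and Mycl, where limma called 3.72% of the probe sets above background on at least 1 adult array lower. On 7 of the 10, all adult signals were below all P3 signals, a separation found for 15.2% of such probe sets. With the 3 included, 5 of 13 were called lower, the fifth being 1422851_at of Hmga2, where 3.87% of all tested probe sets were called lower and 3.39% higher, and this count is a description only.

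**Figure D1:**
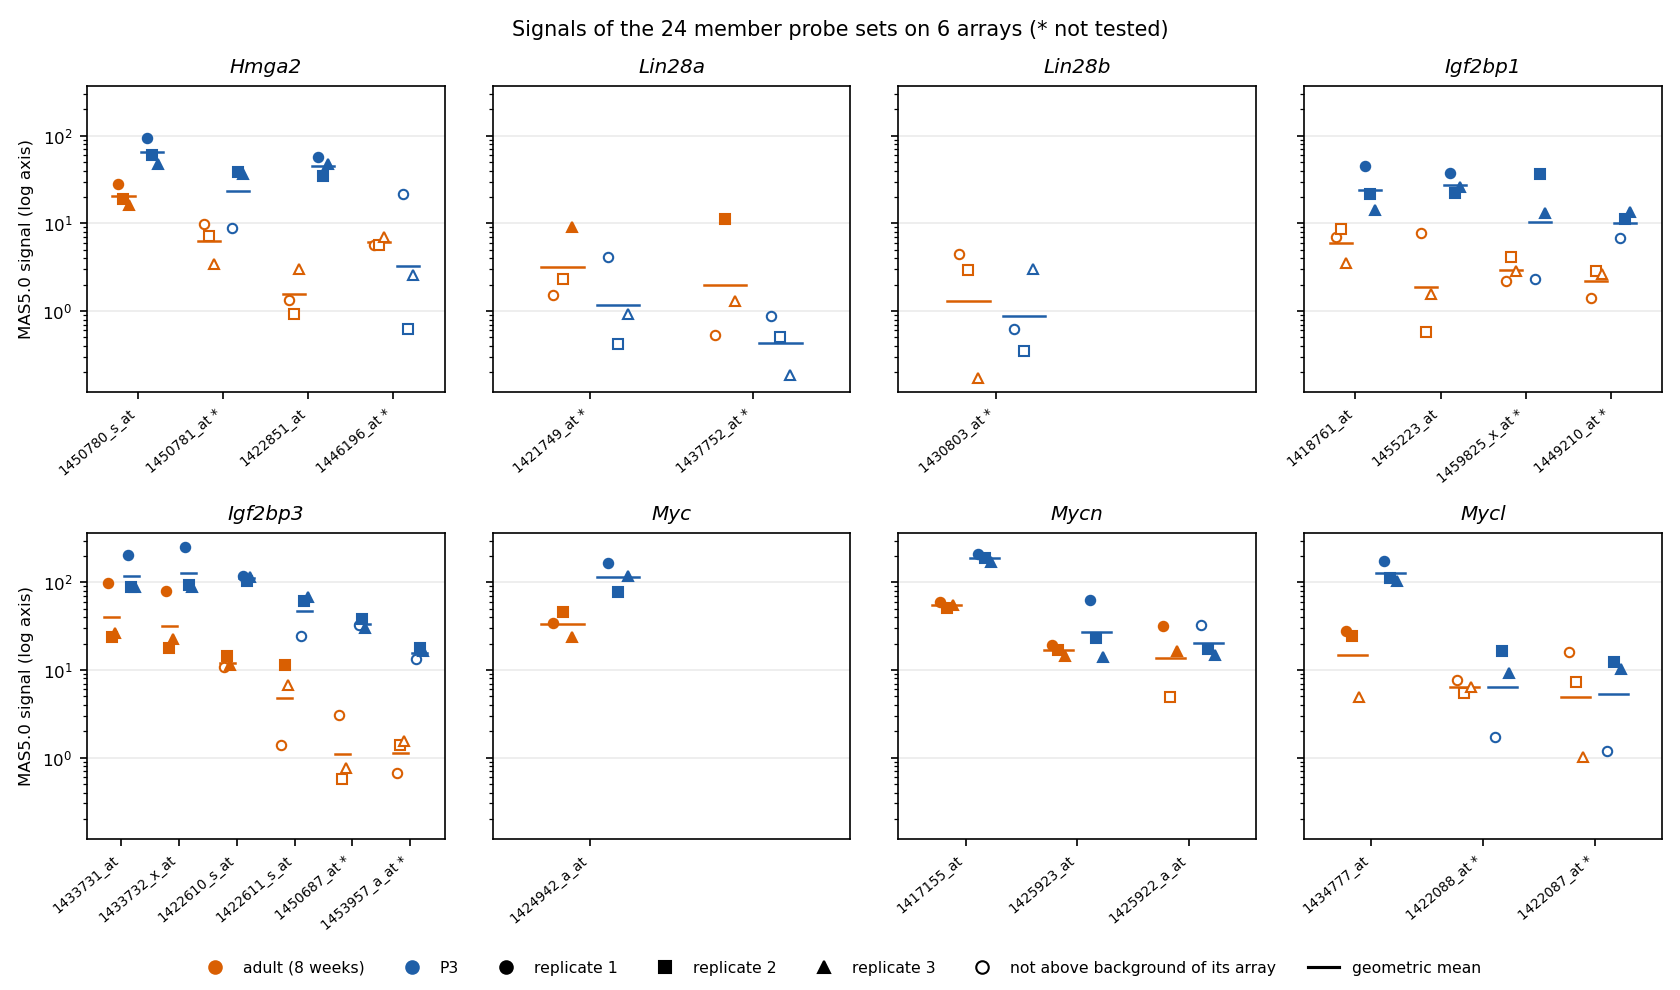
MAS5.0 signals (vertical log axis) of all 24 probe sets of 8 genes, adult in orange at the left and P3 in blue at the right of each probe set, 1 symbol per array and a line at the geometric mean of 3 arrays. Open symbols are not above the background of their array, and an asterisk marks the 11 probe sets that were not tested. Lin28a and Lin28b are open on all arrays but 1 per Lin28a probe set.

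Hmga2, the chromatin protein that the study itself had picked out from these same arrays, had 4 probe sets. At 1422851_at the signals were 1.34, 0.929 and 3.05 on adult replicates 1, 2 and 3, against 57.1, 35.1 and 46.9 on P3 replicates 1, 2 and 3. All P3 signals were above background and no adult signal was, so only a bound can be given. At this probe set the mean signal was at least 4.19-fold lower in the adult. The limma adjusted p was 0.00932, and 0.0262 with signals floored at background, for a probe set that could be tested only through its P3 signals. Without P3 replicate 2 or 3 the adjusted p was 0.0510 and 0.0686, and the call was lost.

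A second Hmga2 probe set, 1450780_s_at, was the brightest one and was above background on all 6 arrays. Its signals were 28.2, 19.1 and 16.0 in the adult, against 93.6, 61.0 and 48.1 at P3. The stages did not overlap, and the log2 fold change was -1.66 (SE 0.43, 95% confidence interval -2.64 to -0.69), with a limma adjusted p of 0.0507 that just missed the threshold. It was called in 6 of 17 alternative settings, among them quantile normalization (adjusted p = 0.0486). The suffix _s_at marks a probe set that can match more than one transcript, so its residual adult signal cannot be set against that of 1422851_at.

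The other Hmga2 probe sets were not tested. At 1450781_at the signals were 9.94, 7.16 and 3.46 in the adult, none above background, against 8.84, 38.2 and 37.03 at P3. The low value is that of P3 replicate 1, the array with the high 3' to 5' ratio. When this array was left out of both the filter and the fit, a setting added after the values were seen, the probe set was called lower in the adult (limma adjusted p = 0.0382), again with no adult signal above background. The probe sets 1422851_at, 1450780_s_at and 1450781_at were all designed on 1 sequence record. The fourth, 1446196_at, came from another record and was above background on no array, at 5.70, 5.65 and 7.02 in the adult and 21.8, 0.618 and 2.60 at P3.

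The repressors of let-7 were at the floor of the array. Lin28a, the form known from pluripotent cells, had signals of 1.51, 2.31 and 9.18 in the adult and 4.11, 0.423 and 0.936 at P3 at 1421749_at. At 1437752_at it had 0.534, 11.3 and 1.30 in the adult, against 0.878, 0.500 and 0.186 at P3. Only the highest adult value of each was above the background of its array, and no P3 value was. Lin28b, with the single probe set 1430803_at, was above background on no array, at 4.46, 2.95 and 0.171 in the adult and 0.626, 0.348 and 3.02 at P3. No difference between the stages could be measured for these genes at this signal.

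Igf2bp3, an RNA-binding protein known from fetal tissue and tumours, had 6 probe sets, the most of any of these genes. At 1422610_s_at the signals were 10.7, 14.3 and 11.3 in the adult, against 117, 103 and 114 at P3. Adult and P3 signals were each within a narrow range and lay far apart. The log2 fold change was -3.21 (SE 0.36, limma adjusted p = 0.00223), and it was called in all 17 alternative settings, with any single array left out among them. On adult replicate 1 this signal was not above background. The suffix _s_at again marks a probe set that can match more than 1 transcript. Whether other transcripts added to its signals was not tested.

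All 6 probe sets of Igf2bp3 had a lower mean log2 signal in the adult, and on 5 the stages did not overlap. At 1422611_s_at, from the same record, the signals were 1.39, 11.3 and 6.75 in the adult, against 24.7, 62.1 and 67.6 at P3. This probe set has the suffix _s_at as well. The log2 fold change was -3.31 (SE 0.87, limma adjusted p = 0.0558), and -3.77 with an adjusted p of 0.0378 without P3 replicate 1. Only 1 adult and 2 P3 signals were above background here, and with signals floored at background the log2 fold change was -2.16 (adjusted p = 0.0191). At the remaining probe set of that record, 1450687_at, the signals were 3.08, 0.577 and 0.757 in the adult, against 32.5, 38.1 and 30.5 at P3. It was not tested because the P3 replicate 1 signal of 32.5 lay under the background of that array, although the stages were well apart. In the fit without a filter on low signals, where 2.17% of all probe sets and 6 of the 24 were called lower in the adult, it was called (limma adjusted p = 0.0182). No adult signal and 2 of the 3 P3 signals were above background, so no fold is given. At 1453957_a_at the signals were 0.673, 1.38 and 1.54 in the adult, against 13.4, 17.8 and 16.3 at P3, and that fit gave an adjusted p of 0.0525.

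The 2 brightest probe sets of Igf2bp3, which share a record of their own, were not called. At 1433731_at the signals were 99.6, 23.9 and 26.6 in the adult, against 203, 89.1 and 89.4 at P3, and the stages overlapped. At 1433732_x_at they were 80.3, 17.8 and 22.7 in the adult, against 256, 93.1 and 88.8 at P3. On both, replicate 1 was the high array of its stage. The log2 fold changes were -1.56 (SE 0.59) and -2.01 (SE 0.64), with limma adjusted p of 0.154 and 0.0962. Without adult replicate 1 they were -2.22 and -2.68, with adjusted p of 0.0359 and 0.0323. The suffix _x_at marks a probe set with probes that may bind other transcripts.

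Igf2bp1, the paralogue that binds the coding region of Myc messenger RNA, was low in both stages and was called at none of its probe sets. At 1455223_at the signals were 7.69, 0.569 and 1.55 in the adult, against 37.5, 21.9 and 25.7 at P3. At 1418761_at they were 7.07, 8.71 and 3.53 in the adult, against 44.7, 21.4 and 14.1 at P3. No adult signal of either was above background, every P3 signal was, and the stages did not overlap. Against background the adult was at least 2.54-fold lower at the first and 2.19-fold lower at the second, with limma adjusted p of 0.0643 and 0.138, and of 0.184 and 0.351 with signals floored at background. The first was called without adult replicate 1, at an adjusted p of 0.0323, with the other adult signals still below background.

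The other Igf2bp1 probe sets were not tested. The signals at 1449210_at were 1.40, 2.83 and 2.62 in the adult, against 6.87, 11.1 and 13.6 at P3. At 1459825_x_at they were 2.22, 4.12 and 2.85 in the adult, against 2.34, 36.9 and 13.1 at P3. On both, P3 replicate 1 was the lowest P3 array and was below its background. In all, the 4 probe sets pointed the same way, each lower in the adult.

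Mycn, the Myc gene of neural and other embryonic progenitors, had signals of 59.5, 51.0 and 55.7 in the adult, against 212, 189 and 172 at P3, at its brightest probe set 1417155_at. All 6 signals were above background and the stages lay far apart. The log2 fold change was -1.78 (SE 0.24, limma adjusted p = 0.00510), and the call held whichever array was left out but was lost with arrays scaled to the same median (adjusted p = 0.0505). At 1425923_at the signals were 19.4, 17.1 and 14.6 in the adult, against 62.1, 23.5 and 14.2 at P3. At 1425922_a_at they were 31.5, 4.93 and 16.6 in the adult, against 32.7, 17.2 and 14.7 at P3. On both of these the stages overlapped, and the log2 fold changes were -0.70 (95% confidence interval -2.11 to 0.70) and -0.56 (-2.31 to 1.19), neither of which was called. These 2 share a sequence record that is not that of 1417155_at. The mean over the tested probe sets of Mycn was not called, with a log2 fold change of -1.01 (limma adjusted p = 0.188).

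Myc, the founding gene of the family, had 1 probe set, 1424942_a_at. Its signals were 34.8, 45.9 and 23.8 in the adult, against 166, 78.1 and 119 at P3. All were above background and the stages did not overlap. The log2 fold change was -1.78 (SE 0.40, limma adjusted p = 0.0317). The call was lost without adult replicate 1, adult replicate 3 or P3 replicate 3, at adjusted p of 0.0680, 0.135 and 0.106. It was also lost with arrays scaled to the same median (0.0861) and with no intensity trend in the variance (0.0726).

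Mycl, the member of the family first found in lung cancer, had signals of 27.8, 24.6 and 4.86 in the adult, against 174, 111 and 104 at P3, at 1434777_at. The adult replicate 3 signal was below background, and all P3 signals were well above every adult one. The log2 fold change was -3.08 (SE 0.66, limma adjusted p = 0.0280). Without P3 replicate 2 or 3 the adjusted p was 0.0708 and 0.0697, and without adult replicate 3 the log2 fold change was -2.27. With arrays scaled to the same median and with no intensity trend in the variance the adjusted p was 0.0603 and 0.0752. The other Mycl probe sets, 1422088_at and 1422087_at, share another record and showed no such gap. The first had 7.67, 5.41 and 6.47 in the adult, against 1.73, 16.4 and 9.24 at P3. The second had 16.1, 7.33 and 1.03 in the adult, against 1.18, 12.3 and 10.3 at P3. Neither had an adult signal above background, and neither was tested.

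**Figure D2:**
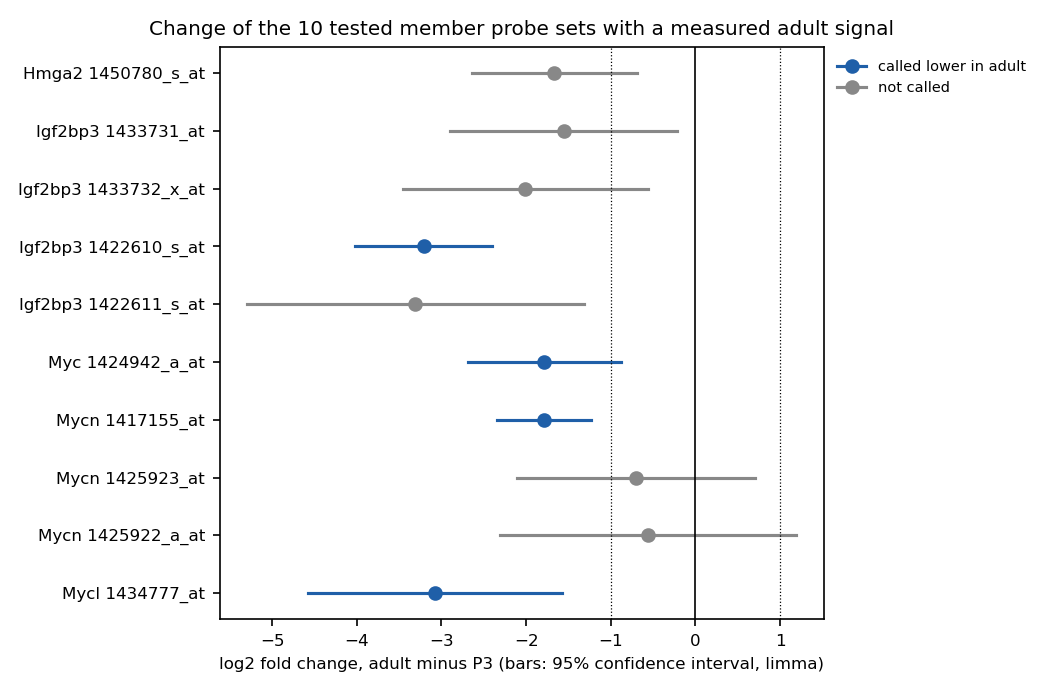
Horizontal axis, adult minus P3 as a log2 fold change, for the 10 tested probe sets that had an adult signal above background, with limma's 95% confidence interval, blue where called lower in the adult and grey where not called; dotted lines mark a fold of 2. All 10 points lie below 0, from -3.31 for Igf2bp3 at 1422611_s_at to -0.56 for Mycn at 1425922_a_at.

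Within genes, the tested probe sets pointed one way for all 4 genes that had more than 1, which were Hmga2, Igf2bp1, Igf2bp3 and Mycn. For Igf2bp3 and Mycn each tested probe set had an adult signal above background. Both tested ones of Igf2bp1, and 1422851_at of Hmga2, passed the filter only through their P3 signals. The filter largely set their direction, so for Hmga2 and Igf2bp1 the shared direction is a description only. The log2 fold changes ran from -3.31 to -1.56 for Igf2bp3 and from -1.78 to -0.56 for Mycn. With signals floored at background they were -2.07 at 1422851_at and -1.66 at 1450780_s_at of Hmga2, and -1.35 at 1455223_at and -1.13 at 1418761_at of Igf2bp1. Probe sets of a gene read the same RNA and are no replicates of each other. With the untested probe sets included, 4 of 6 genes kept 1 direction, namely Igf2bp1, Igf2bp3, Mycn and Lin28a. Lin28a was then higher in the adult at both of its probe sets, none of them at a measurable level. Of the 11 untested probe sets, 6 had a lower and 5 a higher mean log2 signal in the adult, and on 3 of the 11 the adult signals were all below the P3 signals. Over all 24 the stages were separated in this way on 13, against 11.8% of all probe sets on the array.

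Whether paralogues changed by unequal amounts was examined through the log2 ratio of their brightest probe sets within each array, which gives no order of their levels. Of 8 pairs planned, 4 could be formed. The Mycl over Myc ratio was -0.32, -0.90 and -2.29 in the adult, against 0.06, 0.51 and -0.20 at P3, a difference of -1.30. The Mycl over Mycn ratio was -1.10, -1.05 and -3.52 in the adult, against -0.29, -0.77 and -0.72 at P3, also a difference of -1.30. In both, the adult ratios were all below the P3 ratios, with adult replicate 3, where Mycl was below background, the farthest, and floored at background both differences were -1.01. The exact two-sided permutation p was 0.1 for each, the smallest that 3 arrays against 3 allow, and 0.2 when adjusted over the 4 pairs. The Mycn over Myc ratio averaged 0.72 ± 0.54 in the adult and 0.72 ± 0.49 at P3 (SD, n = 3 each), with an exact permutation p of 1, and its difference was -0.12 with the mean background added. The Igf2bp1 over Igf2bp3 ratio has no direction, since no adult Igf2bp1 signal was above background and the difference of -0.43 (exact permutation p = 0.6) turned to 0.43 with signals floored at background and to 0.31 with the mean background added. A p that misses the threshold does not show that the paralogues of these pairs changed equally.

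The call of several genes rested on which arrays were included. With each array left out in turn, the number of the 13 tested probe sets called lower in the adult was 3 without P3 replicate 2 and 2 without P3 replicate 3, and 4 to 7 without any other single array. The 13 include 1422851_at of Hmga2 and both tested ones of Igf2bp1, which could be tested only through their P3 signals. Without P3 replicate 1 it was 6, and 1450687_at of Igf2bp3 and 1450781_at of Hmga2 came in when that array was left out of the filter too, giving 8 of 20 tested (4.59% of all probe sets were called lower in that setting). These 2 and 1422851_at had no adult signal above background and passed that filter only through P3 signals. In the main fit 28.3% of probe sets of that kind were called lower, and the count of 8 is a description only. Igf2bp3 at 1422610_s_at and Mycn at 1417155_at kept their calls whichever array was left out.

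**Figure D3:**
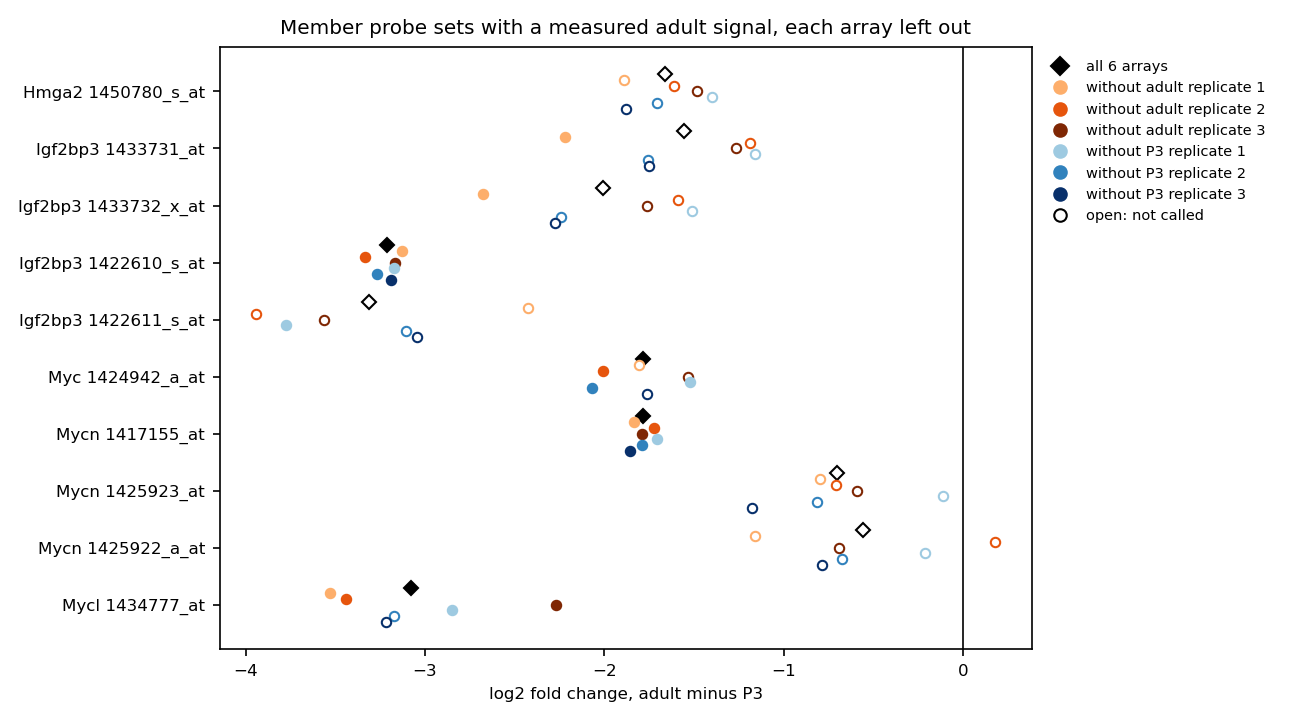
Horizontal axis, adult minus P3 as a log2 fold change, for the same 10 probe sets with all 6 arrays (black diamond) and with each array left out (coloured circles), filled where called and open where not. The circles of Igf2bp3 1422610_s_at lie between -3.33 and -3.13 and those of Mycn 1417155_at between -1.86 and -1.71, while 1425922_a_at of Mycn reaches 0.18 without adult replicate 2.

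The stretch before the start is given for Hmga2, Igf2bp3, Mycn and Mycl, since a probe set of each was called lower in the adult, with Myc named only. The sequences are the 250 bases before the annotated start in RefSeq on GRCm38.p6, and capitals mark 3 motifs searched on both strands. These were the E-box CACGTG, which reads the same on both strands and is found in 6.02% of 32851 such windows, the GC box GGGCGG or CCGCCC (32.7%) and the TATA box TATAAA or TTTATA (12.4%). Hmga2 lay at chr10:120476470-120476719 on the minus strand, Igf2bp3 at chr6:49214955-49215204 on the minus strand, Mycn at chr12:12941837-12942086 on the minus strand and Mycl at chr4:122995681-122995930 on the plus strand.
Hmga2: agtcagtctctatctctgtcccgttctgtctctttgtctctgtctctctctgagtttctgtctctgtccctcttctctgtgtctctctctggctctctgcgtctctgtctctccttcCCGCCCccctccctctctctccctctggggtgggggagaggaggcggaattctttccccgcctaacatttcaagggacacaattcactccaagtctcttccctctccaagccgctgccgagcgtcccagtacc
Igf2bp3: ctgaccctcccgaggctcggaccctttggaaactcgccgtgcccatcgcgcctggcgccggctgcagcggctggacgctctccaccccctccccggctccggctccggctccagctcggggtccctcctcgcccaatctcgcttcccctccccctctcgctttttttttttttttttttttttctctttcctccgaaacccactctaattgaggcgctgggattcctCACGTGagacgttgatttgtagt
Mycn: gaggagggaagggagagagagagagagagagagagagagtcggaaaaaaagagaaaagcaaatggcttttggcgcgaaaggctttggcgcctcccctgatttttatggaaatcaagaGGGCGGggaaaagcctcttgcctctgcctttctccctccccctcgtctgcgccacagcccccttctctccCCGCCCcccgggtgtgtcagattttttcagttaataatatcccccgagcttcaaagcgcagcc
Mycl: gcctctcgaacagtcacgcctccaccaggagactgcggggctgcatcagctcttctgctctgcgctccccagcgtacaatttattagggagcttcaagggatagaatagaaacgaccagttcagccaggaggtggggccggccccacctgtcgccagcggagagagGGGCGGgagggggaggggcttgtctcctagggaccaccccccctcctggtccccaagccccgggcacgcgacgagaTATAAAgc
The E-box letters were in the Igf2bp3 window alone among these 4, the GC box once in Hmga2 and Mycl, 2 times in Mycn and not in Igf2bp3, and the TATA box in Mycl. A match is a description of the letters and is no binding site shown here.

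Genes around the members were counted at their brightest tested probe set, where 5.49% of 13743 genes were called lower in the adult and 4.53% higher. Of 19 other genes known as let-7 targets in mammals, 3 were called lower in the adult and 0 higher, with a median log2 fold change of -0.02, against -0.04 for all genes. These were cell cycle genes. Ccnd1, the cyclin of entry into the cycle, had signals of 90.9, 120 and 105 in the adult, against 860, 762 and 782 at P3 (log2 fold change -2.94, SE 0.21, limma adjusted p = 0.000499). Cdk6, its kinase partner, had a log2 fold change of -2.10 (SE 0.38) and Ccnd2, a related cyclin, of -1.55 (SE 0.26), with adjusted p of 0.0153 and 0.0109. Without adult replicate 3 Ccnd1 alone was called of the 19, and without P3 replicate 3 Cdk6 was not. Trim71, a let-7 target of stem cells, was near the floor at its tested probe set 1453599_at, with 5.77, 14.8 and 12.2 in the adult and 1.53, 11.0 and 2.44 at P3.

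Of 17 measured genes of microRNA processing and let-7 turnover, none met both limits of a call (limma), and the median log2 fold change was -0.30. The Ago genes were counted among them, as were Trim71 and Dicer1, which are also on the list of other let-7 targets. At an unadjusted p under 0.05, 5 were lower and 1 higher in the adult, where 2161 of all 13743 genes (15.7%) were lower and 1791 higher. Tut4, which tags let-7 precursors with uridines, and Prkra, a partner of Dicer, both named after their values were seen, passed the adjusted p (0.0313 and 0.0364) but not the fold limit, with log2 fold changes of -0.98 (SE 0.22) and -0.96 (SE 0.22). Without adult replicate 1, adult replicate 2 or P3 replicate 1, 1 gene was called.

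Of 22 genes that MYC activates in growing cells, 5 were called lower in the adult and 1 higher, with a median log2 fold change of -0.69. Cdk4, a cell cycle kinase, had a log2 fold change of -1.71 (SE 0.27), Apex1, a DNA repair enzyme, of -1.43 (SE 0.29) and Srm, an enzyme of polyamine synthesis, of -1.24 (SE 0.26). The Cdk4 and Apex1 probe sets have the suffix _x_at. Tfrc, the transferrin receptor, went the other way at 1.57 (SE 0.25, limma adjusted p = 0.00880). The total of 6 became 0, 3 and 2 without adult replicate 3, adult replicate 2 and P3 replicate 3. Among 10 partners and antagonists of MYC in the MAX network, 1 was called, Mlxipl, a glucose-sensing factor, which was higher in the adult at a log2 fold change of 2.30 ± 0.56 (SE), with an adjusted p of 0.0443 by limma. That call was lost without adult replicate 1 or 3 or P3 replicate 2 or 3.

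Fetal growth genes held the largest share of calls among the 7 lists around let-7 and MYC. Of 8 measured, 7 were called lower in the adult and 0 higher, with a median log2 fold change of -2.23. Igf2, the growth factor whose messenger RNA gives the IGF2BP proteins their name, had signals of 727, 347 and 240.4 in the adult, against 1393, 2098 and 2463 at P3, at 1448152_at (log2 fold change -2.30, SE 0.41, limma adjusted p = 0.0144). Its other probe set was not tested. Grb10, an imprinted adaptor of growth factor receptors, fell by 3.14 and Gpc3, an oncofetal proteoglycan, by 3.00 on the log2 scale (SE 0.27 each), and Cdkn1c, an imprinted cell cycle inhibitor, fell by 2.45 (SE 0.33). Without adult replicate 3 the count was 4 and Igf2 was not called (adjusted p = 0.0678). H19 is given no probe set by the annotation.

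Of 6 measured genes of the high mobility group families, Hmga2 included at its brightest probe set, 2 were called lower in the adult and 0 higher, with a median log2 fold change of -1.24. These were Hmgb3 and, at a probe set with the suffix _x_at, Hmgb2, which encode DNA-bending proteins of dividing cells. Their log2 fold changes were -1.67 (SE 0.28) and -1.56 (SE 0.30), with limma adjusted p of 0.0102 and 0.0187. The 2 calls became 0 without adult replicate 3 and 1 without adult replicate 1, P3 replicate 2 or P3 replicate 3. The INK4 and ARF locus, which HMGA2 holds down in mouse neural stem cells, was at the floor for Cdkn2a, with 1.94, 5.33 and 0.249 in the adult and 10.1, 2.54 and 4.39 at P3. Cdkn2b had 17.9, 41.9 and 24.3 in the adult, against 1.42, 33.7 and 33.1 at P3, and the log2 difference was 1.17 ± 1.17 (SE), with an adjusted p of 0.592 by limma. The low value is that of P3 replicate 1, without which the log2 fold change was -0.35.

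**Figure D4:**
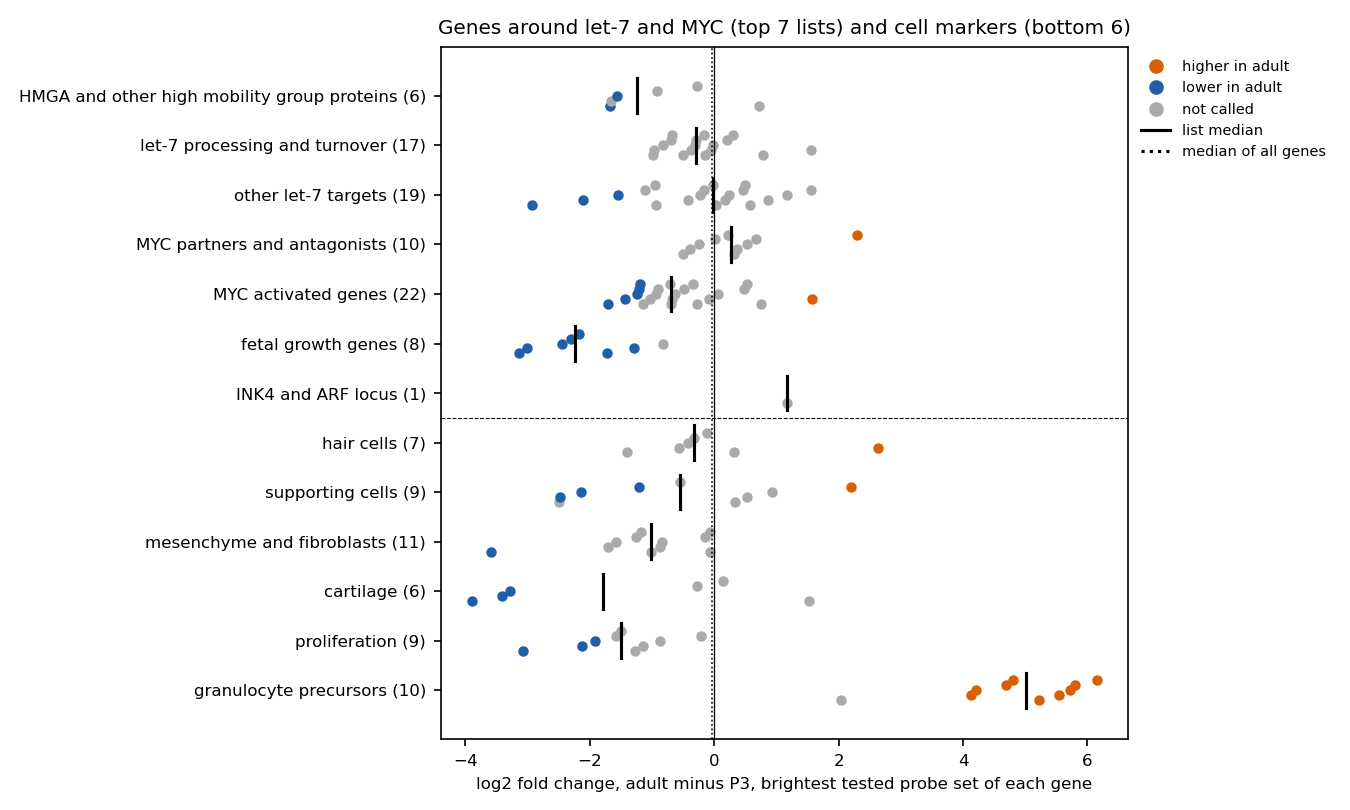
Horizontal axis, adult minus P3 as a log2 fold change, for each gene of 7 lists around let-7 and MYC and of 6 marker lists, 1 point per gene at its brightest tested probe set, with the number of measured genes in brackets and a line at the list median. Orange was called higher and blue lower in the adult, and the fetal growth genes lie at a median of -2.23 against -0.04 for all genes.

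Genes on the cell marker lists differed between the stages as well, and which cells carried them was not measured. The summed signal of 6 cartilage genes was 1189 to 1881 in the adult, against 9080 to 27265 at P3, and that of 11 mesenchyme genes 10699 to 11316 in the adult, against 19432 to 40130 at P3. Both highest P3 sums were on P3 replicate 1, the array with the high 3' to 5' ratio, where Col9a1 of the cartilage list alone had 24288. Of these lists, 3 cartilage genes and 1 mesenchyme gene were called lower in the adult. Over all genes 5.49% were called lower and 4.53% higher. All 11 mesenchyme genes were lower in direction, 8 of them at an unadjusted limma p under 0.05, where 15.7% of all genes were. Acan and Sox9 of the cartilage list went the other way, with log2 fold changes of 1.53 and 0.14, and were not called. Of 9 genes of cycling cells 3 were called lower in the adult, with sums of 394 to 993 in the adult and 989 to 1685 at P3. All 9 were lower in direction, 7 of them at an unadjusted limma p under 0.05. Of 10 granule genes of granulocyte precursors 9 were called higher in the adult, with sums of 3882 to 17355 in the adult and 132 to 418 at P3. Of 7 neuron genes 1 was called higher in the adult, and so was 1 of 3 erythroid genes. Of 8 macrophage genes 1 was called lower, and of 4 glia genes 0 were called. Of the tissue's own markers, named here after their values were seen, 0 of 7 hair cell genes were called lower and 1, Calb2, a calcium-binding protein, higher in the adult, with a median log2 fold change of -0.32 and 5 of the 7 lower in direction. Of 9 supporting cell genes 3 were called lower in the adult, Sox2, Jag1 and Otog, and 1 higher, Gjb6, with a median of -0.56. With single arrays left out, Otog kept its call only without P3 replicate 1. The Calb2 call was lost without adult replicate 1 or 3. The summed signals were 2135 to 4729 in the adult and 610.5 to 1295 at P3 for the hair cell genes, mostly from Calb2 in the adult, and 7409 to 12066 in the adult and 5930 to 7240 at P3 for the supporting cell genes, mostly from the connexins Gjb2 and Gjb6 in the adult. The part of these lists in the changes of the oncofetal and Myc genes was not tested.

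Genes whose log2 signals followed the members most closely over the 6 arrays were sought among 13742 others. For the brightest Hmga2 probe set these were Sema3a, a secreted axon guidance protein (Pearson r = 0.998), Tstd2 (0.997), Itm2a, a membrane protein (0.997), Tfpi, an inhibitor of coagulation (0.995) and Nrep (0.994). Their log2 fold changes ran from -2.33 to -0.61, and all but Tstd2 were called. For the brightest Igf2bp1 probe set they were Sarnp (0.997), 1110059G10Rik (0.997), Polr2i, a subunit of RNA polymerase II (0.997), Gata6, a transcription factor (0.995) and Lancl2 (0.994). Their log2 fold changes ran from -2.26 to -0.38 and none was called, and the adult Igf2bp1 signals behind each r were all below background. The 6 points behind each r share their arrays and their split by stage, and no test was made of them.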

How the data were processed

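The authors hybridized RNA from 6 pools of CSE to Affymetrix Mouse Genome arrays and used Affymetrix GCOS to compute the linear MAS5.0 intensities that were deposited (version 1.2 in the submitters' processing notes, another in the methods). Each of the 6 columns matched a sample by its label. The intensities were taken as deposited, and the authors' detection calls were not used. Genes were named from an array annotation, in which 34945 probe sets name 1 gene, and sequences came from RefSeq tables.

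Log2 signals were compared by stage alone, using lmFit and trended eBayes of limma 3.58.1 (R 4.3.3), with Benjamini-Hochberg adjustment over 29036 probe sets, in place of the study's SAM test, at its fold limit. The brightest probe set of a gene is the tested one of highest mean log2 signal. A fold is a bound where no signal of the lower stage was above background, taken against the background level. The procedure was tested on simulated data. All members, every probe set of them, the called genes of largest change in each list around let-7 and MYC and the genes most alike were named by rule. Of the cell marker lists only some genes were named, not all of them by that rule. The members and lists were chosen with earlier results of these data known. Other normalizations, filters, variance models, a replicate block and arrays left out were tried.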

Additional observations from a re-analysis of the deposited data

How the results depend on the processing

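The number of arrays and the low signals limit these results. Of 217 recomputed log2 fold changes of the 13 tested member probe sets, 182 kept direction and side of the threshold, 12 lost a call, 22 gained one and 1 turned its direction. That one was 1425922_a_at of Mycn, which ran from -1.16 to 0.18 with single arrays left out, the highest without adult replicate 2. Settings that changed only the filter, the intensity trend or the replicate block left the log2 fold change as it was, so the direction could not turn there. Leaving out P3 replicate 1 gave the same log2 fold change under either filter. The number of member probe sets called lower in the adult was 5, and 2 with arrays scaled to the same median, 8 with the mean background added, 3 without the intensity trend, 11 with array quality weights, and 8 without P3 replicate 1 in filter and fit, a setting added after the data were seen. These counts include probe sets above background on no adult array, which could be tested only through their P3 signals. The number of member genes called at their brightest probe set was 3, and 0, 1 and 6 with the same median, without the trend and with weights, and 5 with the mean over probe sets, where Igf2bp1 and part of Hmga2 rest on adult signals that were not above background. Over all probe sets 2109 were called, and 562 with the same median, 899 without the trend and 7593 with weights. Of the pathway genes, 5 were called with the same median and 8 without the trend. With single arrays left out, calls ran from 576 to 2839 over all probe sets, from 2 to 7 for member probe sets, from 1 to 3 for member genes and from 5 to 20 for pathway genes. The difference between Igf2bp1 and Igf2bp3 turned to 0.43 with signals floored at background and 0.31 with the mean background added, where that between Mycn and Myc was -0.12. Cdkn2b turned to -0.36 with floored signals, to -0.29 with weights and to -0.35 without P3 replicate 1, under both filters, and ran from -0.35 to 1.94 with single arrays left out. The cause was not tested. The labels do not say whether the replicate numbers pair the samples, and the main fit did not pair them. Same-numbered arrays deviated together with correlations of 0.182, 0.213 and 0.0762, and every array correlated best with its own number. Whether arrays of the same number shared a batch was not tested. With the replicate block 9 member probe sets and 5 member genes were called lower in the adult.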
